A study of Mus musculus with 2 samples.

Results

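The genes described here are those of axon guidance and ephrin signalling: the semaphorins with their plexin and neuropilin receptors, Slit and Robo, the netrins with DCC and the UNC5 receptors, the ephrins with the Eph receptors, and the reticulon gene Rtn4 with the Nogo receptors. The rule reads only the array's gene symbols, but the families were proposed with earlier results of these data in view. It gave 50 genes of the 11484 named on the array, each read by 1 probe. Of 77 genes listed for these families, 27 were not analysed here, among them Sema3a, Sema3f, Plxnd1, Slit1, Slit3, Epha2 and Ephb2. RNA came from 2 samples of mouse cells, for which the labels give the embryo as stage and C57/ICR as strain. The small-molecule-generated stem cells, at passage 5, had been kept in medium for embryonic stem (ES) cells. The parental cells, at passage 1, had been kept in FBS medium (fetal bovine serum). The compound, its dose and the type of the parental cells are not named in the labels used here, and passage, medium and treatment cannot be told apart. Each group had 1 column of values although the design text speaks of 3 replicates, so no test between the groups was possible and every difference describes these samples only.

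Guidance molecules were named for steering growing axons, and most of them also act outside the nervous system, in blood vessels, in migrating mesenchyme and in the sorting of cells into tissues. A cue on or from a neighbouring cell binds a receptor at the surface, and the receptor turns the actin cytoskeleton toward or away from it. Ephrins are bound to the membrane and can pass a signal back into the cell that bears them.

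Values were normalised probe intensities with medians of 305 in the small-molecule-generated cells and 304 in the parental cells. The 25th percentile of each sample, 93.4 in the small-molecule-generated cells and 93.8 in the parental cells, served as a floor, and a value at or under it was taken as not told from background. Where 1 value of a gene lay there, its fold is given as a lower bound against the floor. Each member was read by a single probe, so its error could be judged only from other genes: in 612 genes with 2 probes, single probes scattered around their gene with an SD of 1.05 in log2 difference, or 2.07-fold. That error covers probes on the same arrays and not separate cultures. The 2-fold size used below is just under that SD. Of 573 probes in these genes that differed by 2-fold or more, 51.3% had the gene's other probe at 2-fold in the same direction. The labelled stem cells were checked on marker genes: Esrrb, a transcription factor of ES cells, was at 33968 in the small-molecule-generated cells and 40.6 in the parental cells, and Thy1, a surface protein of fibroblasts, was at 117 in the small-molecule-generated cells and 40943 in the parental cells. Nanog, another ES cell marker, was close to the floor in the small-molecule-generated cells, at 94.7, and under it in the parental cells, at 77.7.

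Lower values prevailed among the guidance genes of the small-molecule-generated cells. Of the 50 genes, 21 were lower by 2-fold or more, 6 were higher, 17 differed by less than 2-fold and 6 were at or under the floor in both samples. In bulk samples such as these, fewer cells of a type and less RNA per cell cannot be told apart. The lower genes included Nrp1, Slit2, Efnb1 and Unc5b, and the higher ones Sema4g, Sema4b and Ntn1. Over every gene that cleared the floor in either sample, 22.6% were lower and 22.1% higher by the same rule, whereas the lower members made up 47.7% and the higher members 13.6% of the 44 above the floor. The filter admits a gene that is bright in a single sample, and 9 of the 21 lower members were at or under the floor in the small-molecule-generated cells. Among the 31 members above the floor in both samples, 12 (38.7%) were lower and 3 (9.68%) higher, beside 20% and 20.2% of all such genes. When dim values were raised to the floor, 18 members were 2-fold or more lower and 3 higher, beside 20.8% lower and 20.5% higher over all genes. The median log2 difference of the 50 members was -0.47, and that of all 11484 genes was 0.07.

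**Figure D1:**
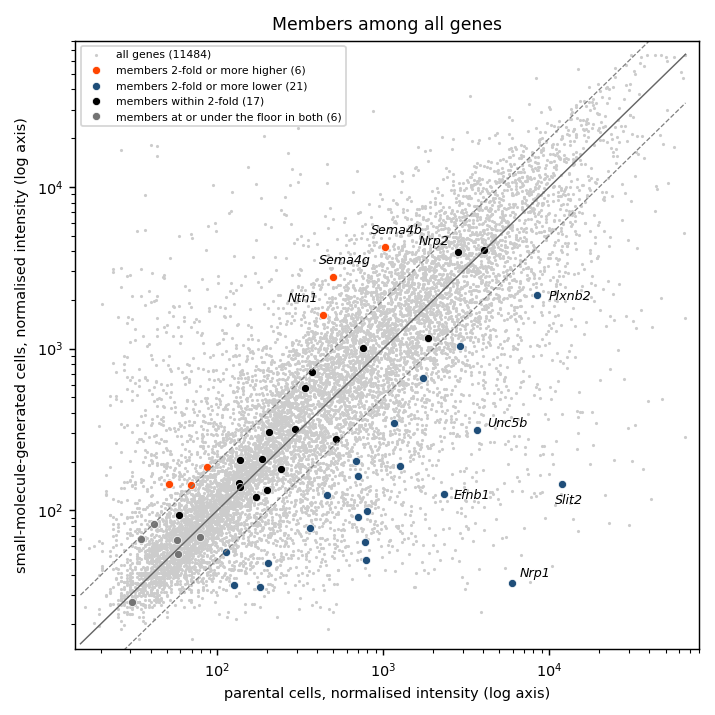
Normalised intensity of each gene in the small-molecule-generated cells (vertical, log axis) against the parental cells (horizontal, log axis), with all 11484 genes in grey and the 50 guidance and ephrin genes in colour by their 2-fold call. The solid line marks equal values and the dashed lines 2-fold; 21 members lie below the lower dashed line with a value above the floor, Nrp1 and Slit2 farthest from it, and 6 lie above the upper one.

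At 4-fold or more, 13 members were lower and 2 were higher, or 29.5% and 4.55% of the 44 above the floor. Over all genes the shares were 10.3% lower and 7.52% higher. A stricter size, 2 SD of the probe error or 4.30-fold, was passed by 11 lower members and by 1 higher member, Sema4g, beside 9.63% and 6.8% of all genes. The lower ones are Nrp1, Slit2, Efnb1, Epha4, Efna5, Unc5b, Robo1, Epha3, Sema5a, Dcc and Plxna4. Dcc and Plxna4 passed on their measured values, but against the floor their bounds were 1.92-fold for Dcc and 3.88-fold for Plxna4. Likewise Epha7, counted at 4-fold on its measured values, had a bound of 2.16-fold.

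Semaphorins are the largest family of guidance cues, and as a group they were mixed. Of 11 measured, 4 were higher, 2 were lower and 5 differed by less than 2-fold. The class 4 semaphorins, which span the membrane, held the 2 largest differences upward in the whole set. Sema4g was at 2791 in the small-molecule-generated cells and 499 in the parental cells, 5.60-fold higher. Sema4b was at 4269 in the small-molecule-generated cells and 1022 in the parental cells, 4.18-fold higher. Both were far above the floor in either sample, so these folds did not depend on it. Sema4c, a ligand of plexin-B2 in the same class, went the other way, with 347 in the small-molecule-generated cells and 1158 in the parental cells, 3.34-fold lower. Sema4a was at 144 in the small-molecule-generated cells and at 69.9, below the floor, in the parental cells, so that its bound was 1.53-fold higher.

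Class 5 semaphorins carry thrombospondin repeats beside the semaphorin domain, and their measured members moved apart. Sema5a was at 189 in the small-molecule-generated cells and 1262 in the parental cells, 6.69-fold lower. Sema5b was at 186 in the small-molecule-generated cells and at 87.2, below the floor, in the parental cells, at least 1.98-fold higher. In class 6, whose members bind A-type plexins, Sema6b was at 720 in the small-molecule-generated cells and 373 in the parental cells, 1.93-fold higher and just short of the 2-fold size. Sema6a was at 121 in the small-molecule-generated cells and 171 in the parental cells. The secreted class 3 semaphorins, the ligands that need a neuropilin, were close to the floor in both samples: Sema3b was at 204 in the small-molecule-generated cells and 137 in the parental cells, and Sema3d at 140 in the small-molecule-generated cells and 137 in the parental cells. Sema7a, which is anchored by a lipid and binds plexin-C1 and integrins, was at 277 in the small-molecule-generated cells and 517 in the parental cells, 1.87-fold lower.

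The receptors of semaphorins were lower or within 2-fold, and none was higher by 2-fold. The neuropilins bind class 3 semaphorins and vascular endothelial growth factors and pass the signal on through plexins. Nrp1 was at 35.7, under the floor, in the small-molecule-generated cells and at 5968 in the parental cells, at least 63.9-fold lower. Nrp2, its paralog and a co-receptor for Sema3f, was at 3930 in the small-molecule-generated cells and 2819 in the parental cells, 1.39-fold higher. The log2 differences of the pair were thus at least 6.48 apart, with Nrp1 taken at the floor, or 4.35 times the SD between 2 probes of the same gene (1.49), in a pair picked after their values were seen.

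Plexins are the signalling receptors of semaphorins and carry a GTPase-activating domain for small GTPases inside the cell. Of 7 measured, 4 were lower, 2 differed by less than 2-fold and Plxnb1 was under the floor in both samples (53.9 in the small-molecule-generated cells and 57.8 in the parental cells). Plxnb2, a receptor for class 4 semaphorins, was at 2152 in the small-molecule-generated cells and 8467 in the parental cells, 3.93-fold lower. Among the A-type plexins, the partners of neuropilins, Plxna1 was at 658 in the small-molecule-generated cells and 1742 in the parental cells, 2.65-fold lower. Plxna2 was at 125 in the small-molecule-generated cells and 459 in the parental cells, 3.66-fold lower. Plxna4 was at 78.3, under the floor, in the small-molecule-generated cells and at 363 in the parental cells, at least 3.88-fold lower. The folds and the bound of these 4 plexins were all under 4.30-fold, the size of 2 SD of the probe error, and all pointed the same way. Plxna3 was at 180 in the small-molecule-generated cells and 242 in the parental cells, and Plxnb3 at 321 in the small-molecule-generated cells and 292 in the parental cells, both within 2-fold.

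Slit2 encodes a large secreted repellent that acts through Robo receptors. It was at 146 in the small-molecule-generated cells and 11938 in the parental cells, 82.0-fold lower. With dim values raised to the floor, 0.2% of the genes tested had a lower difference than Slit2. Robo1, its receptor, was at 99.2, just above the floor, in the small-molecule-generated cells and at 794 in the parental cells, 8.0-fold lower. Ligand and receptor were thus both well above the floor in the parental cells, and both close to the floor in the small-molecule-generated cells. Robo2 was near the floor in both samples, with 147 in the small-molecule-generated cells and 136 in the parental cells. Robo4, the Robo of endothelial cells, was at 146 in the small-molecule-generated cells and at 50.9, below the floor, in the parental cells, with a lower bound of 1.55-fold higher.

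The promoters of the genes that stood farthest out in each direction are shown to give the sequence context of Nrp1 and Slit2, at the low end, and of Sema4b and Sema4g, at the high end. Each is the stretch of 250 bases before the gene's start from RefSeq (build GRCm38.p6), all on the plus strand, read 5′ to 3′, with GC boxes (GGGCGG or its complement CCGCCC) and TATA boxes (TATAAA or its complement TTTATA) in capitals. They lie at chr8:128358823-128359072 for Nrp1, chr5:47982905-47983154 for Slit2, chr7:80186620-80186869 for the first of 2 listed starts of Sema4b and chr19:44989094-44989343 for Sema4g.
Nrp1: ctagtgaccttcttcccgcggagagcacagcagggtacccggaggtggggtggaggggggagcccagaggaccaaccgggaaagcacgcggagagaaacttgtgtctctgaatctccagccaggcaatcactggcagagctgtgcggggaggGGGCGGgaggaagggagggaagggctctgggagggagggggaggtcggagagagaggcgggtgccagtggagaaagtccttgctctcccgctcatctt
Slit2: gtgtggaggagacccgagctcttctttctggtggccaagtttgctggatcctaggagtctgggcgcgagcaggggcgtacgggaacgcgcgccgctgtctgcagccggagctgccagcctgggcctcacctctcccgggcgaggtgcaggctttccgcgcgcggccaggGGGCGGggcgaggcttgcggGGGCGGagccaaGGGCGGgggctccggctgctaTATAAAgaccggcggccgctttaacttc
Sema4b: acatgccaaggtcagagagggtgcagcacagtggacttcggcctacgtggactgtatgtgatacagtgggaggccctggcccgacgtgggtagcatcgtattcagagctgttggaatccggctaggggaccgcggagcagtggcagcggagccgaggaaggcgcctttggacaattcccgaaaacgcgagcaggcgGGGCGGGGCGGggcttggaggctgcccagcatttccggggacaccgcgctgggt
Sema4g: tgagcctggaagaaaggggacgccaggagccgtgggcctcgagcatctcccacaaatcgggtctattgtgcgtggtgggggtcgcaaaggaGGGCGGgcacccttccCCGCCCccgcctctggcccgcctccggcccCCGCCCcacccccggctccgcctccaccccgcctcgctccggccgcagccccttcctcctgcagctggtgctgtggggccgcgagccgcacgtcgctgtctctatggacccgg
Nrp1 holds 1 GC box, Slit2 holds 3 and a TATA box close to the start, Sema4b holds 2 that share bases and Sema4g holds 3. GC boxes thus occurred at both ends of the range of differences.

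Promoters were found for 42 of the 50 members, in 55 windows. They were rich in G and C, with a median of 65.2% against 52.4% over all 32851 windows of the table, and the ratio of observed to expected CpG was 0.61 against 0.37. A GC box on either strand was present in 40 of 55 windows (72.7%) against 32.7% of all windows. By direction, 17 of 21 windows of the lower members held one, as did 6 of 9 windows of the higher members and 13 of 20 windows of those within 2-fold. The table also lists genes other than protein-coding ones, and windows of the same gene can overlap. A TATA box was present in 2 windows, those of Slit2 and Efnb2, or 3.64% against 12.4% of all windows. For CCAAT the share was 25.5% against 33.8% of all windows, and for the E-box CACGTG, which is its own complement, 5.45% against 6.02%. For the E-box CAGGTG, a site form bound by Snail family repressors, it was 12.7% against 17.2%, with matches in 5 of 21 windows of the lower members (23.8%), 0 of 9 of the higher members and 1 of 20 of those within 2-fold. For AAGGTCA, the half-site read by ESRRB and related nuclear receptors, it was 7.27% against 4.08%, with matches in Nrp1, Sema5a, Sema4b and Ntn5. Such matches are letters in a window and no evidence of binding.

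Netrin-1 and the netrin receptors in the set differed in opposite directions. Netrin-1 is a diffusible cue that attracts axons through DCC and repels them through the UNC5 receptors. Ntn1 was at 1621 in the small-molecule-generated cells and 435 in the parental cells, 3.72-fold higher. All 3 receptors in the set were lower. Neogenin, a further netrin receptor outside the set, was not: Neo1 was at 403 in the small-molecule-generated cells and 261.5 in the parental cells, 1.54-fold higher. Unc5b was at 312 in the small-molecule-generated cells and 3658 in the parental cells, 11.7-fold lower. Unc5c was at 201 in the small-molecule-generated cells and 686 in the parental cells, 3.41-fold lower. Dcc was at 33.7, under the floor, in the small-molecule-generated cells and at 180 in the parental cells, at least 1.92-fold lower. Under the floor in both samples were Ntn3, with 65.2 in the small-molecule-generated cells and 57.0 in the parental cells, and Ntn5, with 66.6 in the small-molecule-generated cells and 34.6 in the parental cells. Ntng1, a membrane-anchored netrin that does not act through DCC, was at 304 in the small-molecule-generated cells and 206 in the parental cells, 1.48-fold higher. The log2 difference of Ntn1 exceeded that of Unc5b by 5.45, or 3.66 times the SD between 2 probes of a gene, again for a pair picked after its values were seen.

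Ephrins are the membrane-bound ligands of the Eph receptors, the A class held by a lipid anchor and the B class spanning the membrane. Of 6 measured, 4 were lower and none was higher. Efnb1, an X-linked gene needed for the formation of boundaries between cells, was at 127 in the small-molecule-generated cells and 2333 in the parental cells, 18.3-fold lower. Efnb2, the ephrin of arteries, was at 1037 in the small-molecule-generated cells and 2882 in the parental cells, 2.78-fold lower, and stayed well above the floor. Efnb3 was under it in both samples, at 82.0 in the small-molecule-generated cells and 41.4 in the parental cells. In the A class, Efna5, which patterns the retinal map, was at 63.8, under the floor, in the small-molecule-generated cells and at 778 in the parental cells, at least 8.32-fold lower. Efna1 was at 163 in the small-molecule-generated cells and 701 in the parental cells, 4.29-fold lower. The exception was Efna4, with 1012 in the small-molecule-generated cells and 757 in the parental cells, 1.34-fold higher.

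Eph receptors, a large group of receptor tyrosine kinases, split by class. Of 6 EphA genes 3 were lower, 1 differed by less than 2-fold and 2 were under the floor in both samples. Epha4, which binds ephrins of both classes, was at 49.7, under the floor, in the small-molecule-generated cells and at 788 in the parental cells, at least 8.43-fold lower. Epha3 was at 91.3, also under the floor, in the small-molecule-generated cells and at 705 in the parental cells, at least 7.55-fold lower. Epha7 was at 47.0, under the floor, in the small-molecule-generated cells and at 202 in the parental cells, at least 2.16-fold lower. All 3 were thus at background in the small-molecule-generated cells. Epha8 was at 207 in the small-molecule-generated cells and 185 in the parental cells. Under the floor in both samples were Epha1, with 68.7 in the small-molecule-generated cells and 78.3 in the parental cells, and Epha6, with 27.3 in the small-molecule-generated cells and 30.8 in the parental cells.

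None of the 3 EphB genes differed by 2-fold, and all were above the floor in both samples. Ephb4, the receptor of ephrin-B2 in veins, was at 4082 in the small-molecule-generated cells and 4021 in the parental cells, a log2 difference of 0.02 that turned to -0.05 with centring on the median of all genes. Ephb3 was at 1171 in the small-molecule-generated cells and 1863 in the parental cells, 1.59-fold lower. Ephb6, whose kinase domain is inactive, was at 571 in the small-molecule-generated cells and 336 in the parental cells, 1.70-fold higher. The log2 differences of the EphB genes ran from -0.67 to 0.76 and those of the EphA genes, with dim values at the floor, from -3.08 to 0.17, a contrast described here without a test.

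The group around Nogo was close to the floor throughout. Rtn4 encodes the Nogo proteins, which shape the endoplasmic reticulum and, on myelin, stop the growth of axons. It was at 134 in the small-molecule-generated cells and 199 in the parental cells, 1.48-fold lower. The Nogo receptor gene Rtn4r was at 55.2, under the floor, in the small-molecule-generated cells and at 114 in the parental cells, and its relative Rtn4rl1 at 34.4, under the floor, in the small-molecule-generated cells and at 126 in the parental cells. Both count as lower by 2-fold on their measured values, but their bounds were 1.22-fold and 1.35-fold. Rtn4rl2 was at 94.2, just above the floor, in the small-molecule-generated cells and at 59.0, under it, in the parental cells. These 4 genes therefore hold no difference that clears the floor by 2-fold.

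**Figure D2:**
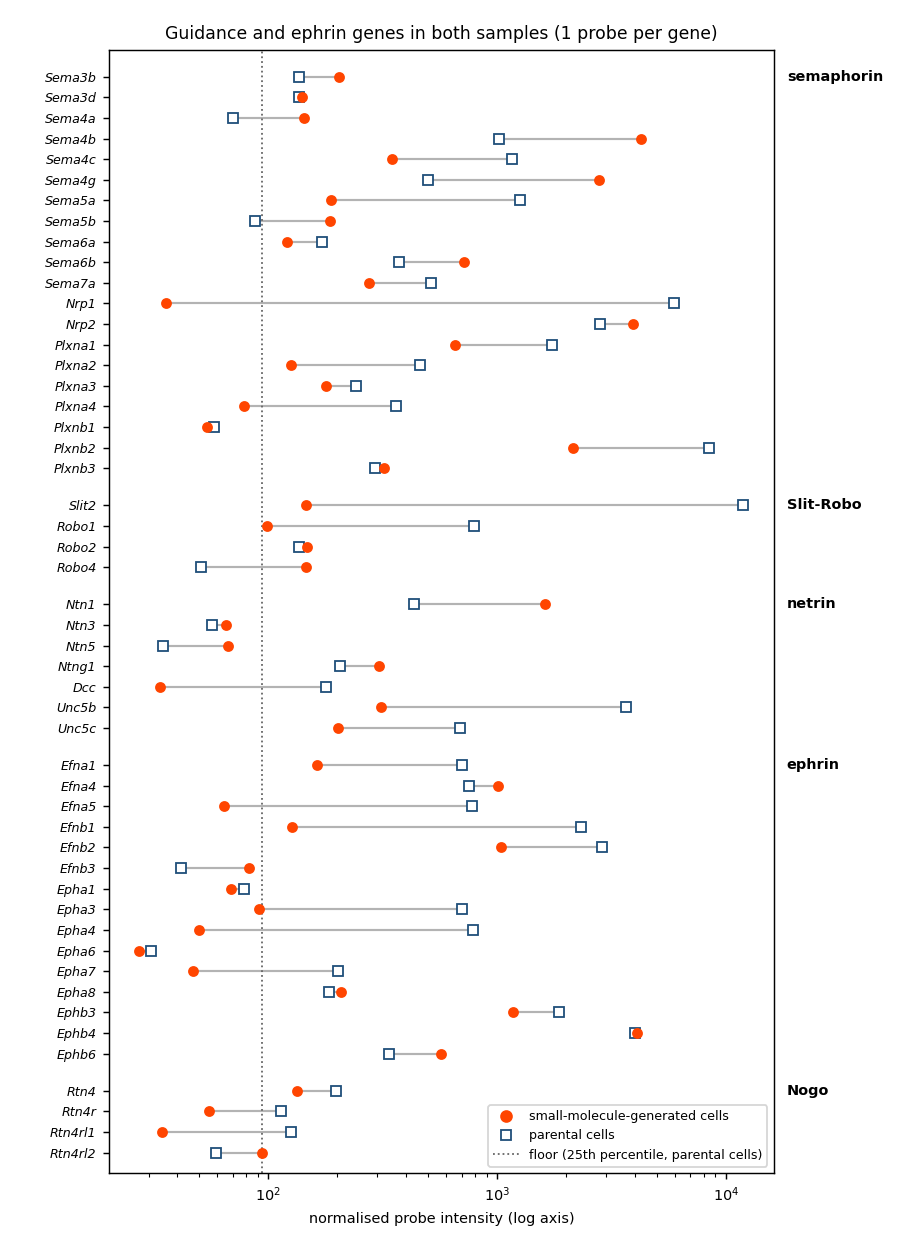
Normalised probe intensity (log axis) of the 50 guidance and ephrin genes by family, with ligands above receptors. Filled circles are the small-molecule-generated cells, open squares the parental cells, and the dotted line is the floor; the longest spans belong to Nrp1 and Slit2, with the circle far left of the square, and Sema4b, Sema4g and Ntn1 have the circle right of the square with both values above the floor.

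Set side by side by role, the receptors past 2-fold were nearly all lower, and the ligands were divided. Of 27 receptors and co-receptors measured, 14 were lower and 1, Robo4, was higher, or 11 lower and 0 higher with dim values raised to the floor. Of 22 ligands, 7 were lower and 5 higher, or 7 lower and 3 higher with dim values raised to the floor. Above the floor in 1 or both samples were 24 of the receptors and 19 of the ligands. The shares over all genes above the floor were 22.6% lower and 22.1% higher, or 20.8% and 20.5% with dim values raised. The count of higher ligands was thus near the share over all genes. The 7 lower ligands, out of 19 above the floor, were more than either share of lower genes would give. The median log2 difference was -1.04 for the receptors and 0.31 for the ligands, and with dim values at the floor -0.43 for the receptors and -0.01 for the ligands. These medians include members at or under the floor in both samples, among the ligands Efnb3, Ntn3 and Ntn5. The value of -0.01 is the difference between the floors of the samples and not a measured one. Rtn4 was counted in neither role. Within the ligands the ephrins had a median of -1.79 and the semaphorins of 0.57. These are descriptions of single probes in 1 sample per group, and no test of the difference between roles was made.

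**Figure D3:**
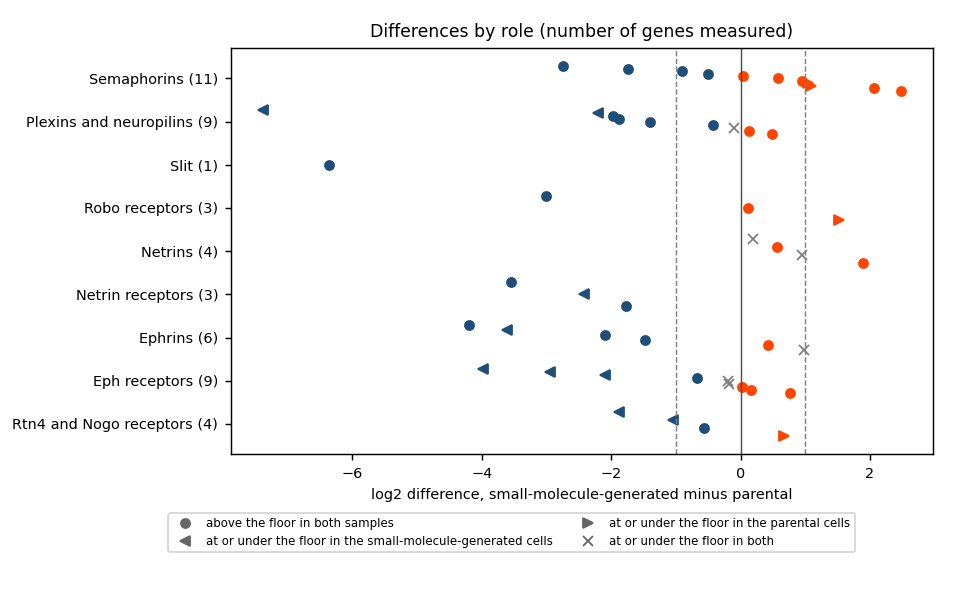
Log2 difference of each gene, small-molecule-generated minus parental cells, by role, with the number of genes measured in brackets. Circles mark genes above the floor in both samples, triangles genes at or under it in a single sample, whose true difference has only a bound, and crosses genes at or under it in both; dashed lines mark 2-fold. All netrin receptors in the set lie left of the lower dashed line, whereas semaphorins and netrins reach past the upper one.

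The counts were also taken by brightness in the parental cells. The parental value enters both the bin and the difference, so bright bins lean toward lower calls for any gene. Above the parental 75th percentile, 7 of 10 members (70%) were lower, beside 33.3% of 3058 genes, and 0 of 10 were higher, beside 12.5%. Between the median and the 75th percentile, 10 of 17 members (58.8%) were lower, beside 26.1% of 3173 genes, and 3 (17.6%) were higher, beside 22.9%. Under the median, 4 of 17 (23.5%) were lower, beside 10.2% of 3535 genes, and 3 (17.6%) were higher, beside 29.7%. All 4 of the lower ones under the median were at or under the floor in the small-molecule-generated cells. When dim values were raised to the floor, 1 of those 17 members (5.88%) was lower, beside 5.29% of all genes, and 0 were higher, beside 25.2%. The counts of the other ranges were the same either way, so the larger share of lower members was seen above the parental median, with few members in each range.

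**Figure D4:**
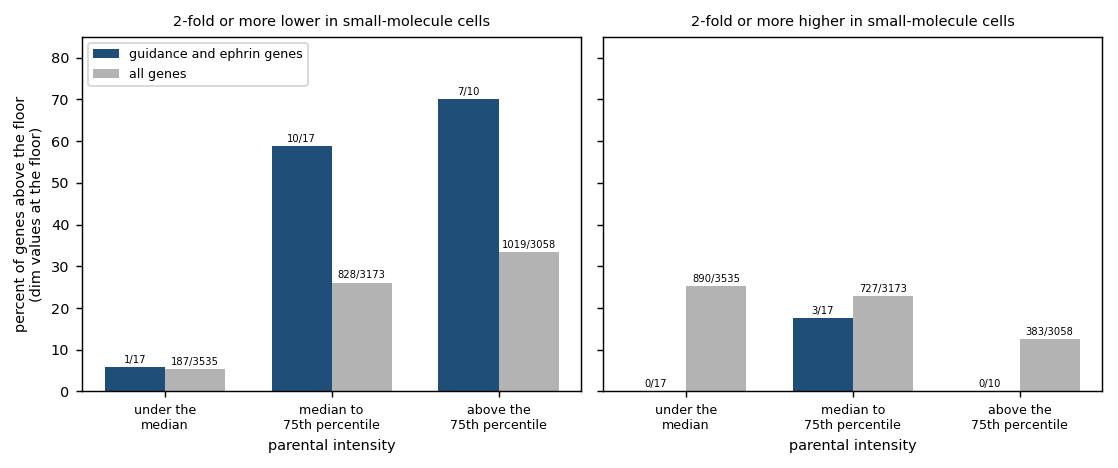
Percent of genes above the floor that were 2-fold or more lower (left) or higher (right) in the small-molecule-generated cells, by range of parental intensity. Dark bars are the guidance and ephrin genes and grey bars all genes, with counts above each bar; dim values were raised to the floor, and the share of lower members was 5.88% in the dimmest range, close to the 5.29% of all genes, and 58.8% and 70% in the brighter ranges, against 26.1% and 33.3% of all genes.

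The wider pathway was read through a list of 98 entries for co-receptors, partners and intracellular effectors, of which 66 were measured. Of these, 23 were lower, 8 higher, 27 within 2-fold and 8 under the floor in both samples, with a median log2 difference of -0.38. Over all genes above the floor the shares were 22.6% lower and 22.1% higher. Among co-receptors and adhesion partners 8 of 19 were lower and 2 higher. Flrt2, an adhesion protein that binds UNC5 receptors, was at 78.3, under the floor, in the small-molecule-generated cells and at 7014 in the parental cells, at least 75.1-fold lower. Cdon, a co-receptor of hedgehog ligands related to the Robo receptors, was at 459 in the small-molecule-generated cells and 4623 in the parental cells, 10.1-fold lower. Rgma, a repulsive cue read by neogenin, was at 286 in the small-molecule-generated cells and 2321 in the parental cells, 8.11-fold lower. The higher ones were Lrig2 (1089 in the small-molecule-generated cells and 428 in the parental cells, 2.54-fold) and Cntn2 (293 in the small-molecule-generated cells and 140 in the parental cells, 2.09-fold).

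Effectors of semaphorin signalling were lower in 7 of 14 cases and higher in 2. The collapsin response mediators, which link semaphorin receptors to microtubules, were not uniform. Dpysl2 was at 248 in the small-molecule-generated cells and 7151 in the parental cells, 28.8-fold lower. Dpysl3 was at 93.4, its floor, in the small-molecule-generated cells and at 1438 in the parental cells, at least 15.4-fold lower. Dpysl5, a member of the same family, was at 664 in the small-molecule-generated cells and at 64.9, below the floor, in the parental cells, at least 7.08-fold higher. Farp1, a guanine nucleotide exchange factor that works with A-type plexins, was at 168 in the small-molecule-generated cells and 2578 in the parental cells, 15.3-fold lower. Mical3, of the oxidoreductase family that disassembles actin below plexins, was at 957 in the small-molecule-generated cells and 157 in the parental cells, 6.10-fold higher.

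The other effector classes were closer to even, and their counts lay within a few genes of what the shares over all genes give. Of 10 Slit and netrin effectors 2 were lower and 1 higher, the last being Srgap3, of a protein family that binds Robo, with 3979 in the small-molecule-generated cells and 1582 in the parental cells (2.52-fold). Dock1 was 3.59-fold lower and Ablim1 3.35-fold lower. Of 15 ephrin and Eph effectors 3 were higher and 2 lower. The higher ones were the lipid phosphatase gene Inpp5d (7.49-fold), Pick1, a PDZ protein that binds Eph receptors and ephrins (7.27-fold), and Chn1, at least 1.29-fold against the floor. Ptpn13 was at least 3.22-fold lower and Vav3 at least 1.91-fold lower.

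Markers of cell types known to use these cues differed between the samples as well. Over all genes above the floor, 22.6% were lower and 22.1% higher by 2-fold or more. All 3 measured fibroblast markers (Thy1, Snai2 and S100a4) were lower, with a summed intensity of 351 in the small-molecule-generated cells and 75617 in the parental cells. All 4 measured macrophage markers were lower too, with sums of 599 in the small-molecule-generated cells and 6057 in the parental cells. Of 9 neuronal markers 6 were higher, such as Stmn2 (2602 in the small-molecule-generated cells and 206 in the parental cells), and Map2 was lower, with sums of 7532 in the small-molecule-generated cells and 2410 in the parental cells. Rbfox3, a defining gene of mature neurons, was under the floor in both samples. Of 3 glial markers 2 were higher, with sums of 3054 in the small-molecule-generated cells and 1047 in the parental cells. Sox10, the third, was 1.95-fold lower. Of 5 endothelial markers 2 were higher, with sums of 1352 in the small-molecule-generated cells and 387 in the parental cells, and Pecam1 was under the floor in both. The higher ones, Tie1 and Vwf, were both under the floor in the parental cells. Cdh5 and Kdr differed by less than 2-fold, Cdh5 upward and Kdr downward. Kdr was at 77.0, under the floor, in the small-molecule-generated cells and at 117 in the parental cells. Of 7 ES cell markers 6 were higher, with sums over the 7 of 90847 in the small-molecule-generated cells and 683 in the parental cells. The other, Nanog, was at 94.7, just above the floor, in the small-molecule-generated cells and at 77.7, under it, in the parental cells. The part of these cell types in the differences of the guidance genes was not tested.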

How the data were processed

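Total RNA was amplified, labelled with Cy5 and hybridised to a 1-colour Phalanx mouse array of oligonucleotides, per the labels. The authors deposited probe intensities on a linear scale, from 16 to 65494 in the small-molecule-generated cells and from 15 to 65495 in the parental cells. Scanner, background correction and normalisation are not stated in the sources used here; nearly equal quantiles in both columns would follow from a normalisation between arrays, which removes differences in total signal. The small-molecule-generated sample was read as the one the design text calls PEG cells. It also names 3 replicates, whose relation to the columns is not stated.

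Of 13989 probes, 12380 carried 1 gene symbol from the platform's annotation, 0 had several and 1609 were unnamed. Symbols were updated through Entrez identifiers (12364 matched) with RefSeq (GRCm38.p6). Intensities were brought to log2 and averaged per gene, and the difference was taken as small-molecule-generated minus parental. Of 11484 genes, 9766 were above the floor in at least 1 sample, and shares over all genes refer to these. With 1 sample per group no p-value was computed. Every measured member is named. From each class of the pathway list, the 3 largest differences each way were named, except for 1 class that is counted in the list's totals and not reported here. The members and lists were chosen with earlier results of these data known. Promoter windows of 250 bases were searched for each motif on both strands. Work was done in Python 3.11.15 with numpy 2.4.6, pandas 2.3.3 and statsmodels 0.14.6. The number of arrays limits the precision. Alternatives included quantile normalisation, centring on the median, lowess centring (span 0.3), the brightest probe, an offset of 50, other floors, other sizes, probes in place of genes and, chosen after seeing the data, centring each class of probe identifiers.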

Additional observations from a re-analysis of the deposited data

How the results depend on the processing

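The count of 21 lower members stayed between 17 and 21 under every normalisation, floor and offset tried, and fell to 13 at 4-fold and 11 at 2 SD of the probe error, both stricter by construction. The count of 6 higher members was less firm. It was 5 with centring on the median of all genes and 4 with each class of probe identifiers centred. With an offset of 50, with the floor at the median and with dim values raised to the floor it was 3. At 4-fold it was 2, and at 2 SD of the probe error it was 1. Sema4a fell under 2-fold with both forms of centring, and Sema5b with the centring by class. Sema4a, Sema5b and Robo4 are the members that drop out with values at the floor. The median log2 difference lay between -0.54 and -0.36 in all 7 alternatives for which it was computed. No called member changed sign in any of them. Among the 44 members above the floor, Ephb4, Sema3d and Robo2, all within 2-fold, changed sign under some form of centring. The brightest probe and the count of probes gave the same values by construction, since each member had 1 probe. No paired analysis was possible because each group had 1 sample. Values near the floor limit what can be said of 19 members, which were at or under it in at least 1 sample.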
